A study of Arabidopsis thaliana with 6 samples.

Results

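The 10 aquaporin genes described here were chosen by locus from 33602 genes in the table, with earlier results of these data known. They are the seed type genes TIP3-1 and TIP3-2 and 8 genes known from vegetative tissue, namely TIP1-1, TIP1-2, TIP2-1, PIP1-1, PIP1-2, PIP1-5, PIP2-1 and PIP2-2. Names carry a hyphen, as in the deposited table, where a semicolon is also in use. The other 25 aquaporins of the Arabidopsis family were examined beside them.

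Aquaporins are channel proteins that let water and small uncharged solutes cross membranes. In plants, tonoplast intrinsic proteins (TIPs) sit in the vacuole membrane and plasma membrane intrinsic proteins (PIPs) in the plasma membrane. The TIP3 pair belongs to the protein storage vacuoles of seeds and is known to disappear as a seedling grows, while TIP1 and TIP2 mark the vacuoles of vegetative cells and PIPs carry much of the water uptake of growing tissue. PIP1 proteins generally need a PIP2 partner to reach the plasma membrane.

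RNA sequencing of poly(A) RNA was done on germinating Arabidopsis thaliana seeds in 6 libraries, 3 of the wild type (Col-0) and 3 of scl30a-1, a line in the Columbia background that is mutant in the SR splicing factor gene SCL30a. Both genotypes had the same handling: 50 mg of seeds spent 3 days of stratification at 4 degrees Celsius and were collected after 18 h in continuous white light at 21 degrees Celsius. The mutant is represented by 1 line, and the nature of its mutation is not given in the sources used here. The labels call the material both seeds and whole seedlings.

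Depth was 70687361 to 84356746 counts per wild-type library and 77817191 to 85605647 per scl30a-1 library. SCL30a itself had 6890, 7290 and 8425 counts in the wild type (a to c) and 478, 440 and 458 in the mutant libraries, so each library matched its genotype label (log2 fold change -4.07, edgeR adjusted p = 4.45e-11). Of 18736 genes tested with edgeR, 41.7% were called at an adjusted p under 0.05, with 21.9% higher and 19.7% lower in scl30a-1, so a call alone is common in this comparison. A difference of at least 1.5-fold was called for 12.2%. The libraries are of whole seeds, in which fewer cells of a type and less RNA per cell cannot be told apart.

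The material carried seed transcripts. Of 5 seed markers, 4 were called higher in scl30a-1: the cruciferins CRA1 (log2 fold change 2.92) and CRC (3.02), the albumin gene AT2S3 (2.49) and the oleosin gene OLE1 (2.59). ABI3, a B3 transcription factor that activates seed genes, was not called, with 394.5 ± 23.2 CPM (counts relative to scaled library totals) for the wild type against 422 ± 27.3 for the mutant (SD, n = 3 each) (edgeR adjusted p = 0.257). Their summed level, ABI3 included, was 905.9 to 1071 RPKM (counts per kilobase of the longest annotated transcript and library total) in the wild type and 5639 to 6271 in scl30a-1. The green seedling markers differed widely in level. LHCB1.1, a light-harvesting gene of green tissue, had 0 to 3 counts in every library, LHCA1 had 93 to 148 and RBCS1A had 30917 to 37361.

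The TIP3 pair was far higher in scl30a-1. Both genes encode aquaporins of the protein storage vacuole membrane, formerly named alpha-TIP and beta-TIP. Their promoters are shown because the pair moved together. Each sequence is the 250 bases before the annotated gene start, read 5′ to 3′ on the gene's strand (plus for both) from the RefSeq TAIR10.1 genome, at chr1:27521694-27521943 for TIP3-1 and chr1:6129775-6130024 for TIP3-2. Capitals mark CATGCA, the RY element recognised by B3 factors such as ABI3, and ACGTG, the core of the abscisic acid response element recognised by bZIP factors such as ABI5, each on either strand.
TIP3-1: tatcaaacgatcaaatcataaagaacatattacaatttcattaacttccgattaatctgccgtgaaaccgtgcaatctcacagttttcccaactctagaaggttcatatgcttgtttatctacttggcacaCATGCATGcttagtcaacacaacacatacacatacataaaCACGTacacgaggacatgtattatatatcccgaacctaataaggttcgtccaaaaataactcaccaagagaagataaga
TIP3-2: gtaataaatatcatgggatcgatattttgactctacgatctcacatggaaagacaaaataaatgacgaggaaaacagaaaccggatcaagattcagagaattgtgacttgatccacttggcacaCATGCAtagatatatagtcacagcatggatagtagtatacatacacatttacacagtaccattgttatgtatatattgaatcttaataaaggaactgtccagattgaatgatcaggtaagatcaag

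The TIP3-1 window held 2 overlapping matches of the RY element, with first bases at -119 and -117 counted from the gene start, and 1 match of the response element core at -79. The TIP3-2 window held 1 RY match, at -126, and no match of the core. The RY letters were present in 8.43% and the core in 22.9% of 27443 promoters of protein-coding genes of the same length, and both together in 2.22%. Among the 8 vegetative genes, 3 windows held the RY letters (TIP1-2, PIP1-1 and PIP1-5), 1 held the core (TIP1-1) and 0 held both. The RY letters also lay in the windows of PIP2-7 and PIP2-8, described further on. The longest run common to both TIP3 windows was the 17 bases acttggcacaCATGCAt, which includes the RY match. This run occurred 2 times on both strands of the 5 chromosomes, and 2 protein-coding promoters held it. A match of letters is a description and shows no binding.

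TIP3-1 (AT1G73190, chromosome 1 from 27521944 to 27523332, plus strand, 3 exons) had 5687, 4900 and 4856 counts in the wild type (a to c) and 40207, 42433 and 35091 in the mutant (a to c). Every mutant library lay far above every wild-type library. Its mean rose from 66.5 ± 12.1 to 491.5 ± 53.0 CPM (SD, n = 3 each), a 7.40-fold difference (log2 fold change 2.89, 95% interval 2.61 to 3.17, edgeR adjusted p = 8.8e-08). This was the 44th highest log2 fold change of all genes tested.

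TIP3-2 (AT1G17810, chromosome 1 from 6130025 to 6131627, plus strand, 3 exons) had 2294, 2127 and 2043 counts in the wild type (a to c) and 13380, 13359 and 11562 in the mutant libraries. These groups did not overlap either. The mean went from 27.8 ± 4.3 to 159.8 ± 12.7 CPM (SD, n = 3 each), 5.76-fold higher (log2 fold change 2.53, 95% interval 2.29 to 2.76, edgeR adjusted p = 5.84e-08). It ranked 85th. Among all genes tested, 3.16% were called higher by at least 2-fold.

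Both TIP3 genes overlap genes on the opposite strand, and the use of strand in counting is not given in the sources used here. Of the 36-base words of the TIP3-1 transcript, 22.3% lie in the overlapping AT1G73200, which had 3919 to 4839 counts in the wild type and 4250 to 4480 in scl30a-1. Of the TIP3-2 words, 42.4% are shared with other annotated genes, mostly the non-coding AT1G05333, which was not analysed here. The overlapping protein-coding gene AT1G17820 had 1618 to 2139 counts in the wild type and 1709 to 2126 in scl30a-1. The ranges of both overlapping coding genes overlapped between genotypes.

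The coding sequences of TIP3-1 (807 nt) and TIP3-2 (804 nt) are identical at 78.9% of 801 aligned bases, against 60.3% to 65.4% between TIP3-1 and the 8 vegetative genes. TIP3-1 was the more abundant of the pair in each library. Its part of their summed RPKM was 71.2%, 69.6% and 70.3% in the wild type and 74.9%, 76.0% and 75.1% in scl30a-1. The mutant libraries all lay above the wild-type libraries in this share.

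The vegetative TIP genes were close to the detection floor. TIP1-1 (AT2G36830), a water channel of the vegetative vacuole, had 17, 13 and 5 counts in the wild type (a to c) and 9, 15 and 16 in the mutant libraries. The groups overlapped, and it was not called (log2 fold change 0.16, 95% interval -0.89 to 1.21, edgeR adjusted p = 0.81). At these few counts the interval takes in both a fall and a rise.

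TIP2-1 (AT3G16240), a vacuolar channel that also conducts ammonia, had 8, 23 and 16 counts in the wild type and 2, 4 and 3 in scl30a-1. Each mutant library was below each wild-type library. It did not pass the filter on low counts, so it has no adjusted p in the comparison as designed. Its summed counts were 47 in the wild type and 9 in scl30a-1, a depth-corrected ratio of 0.181 (exact 95% interval 0.0782 to 0.374, counting error only). Without the filter it was called lower (edgeR adjusted p = 0.0034), as with DESeq2 (adjusted p = 0.0044). The gene overlaps the non-coding AT3G03265, not analysed here, by 445 bases on the opposite strand. It also overlaps AT3G16250 there by 120 bases, which had 31 to 43 counts in the wild type and 16 to 21 in scl30a-1.

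TIP1-2 (AT3G26520), a close relative of TIP1-1, also failed the filter, with 4, 4 and 2 counts in the wild type and 0, 1 and 0 in scl30a-1. The ratio of summed counts was 0.0948 (exact 95% interval 0.00218 to 0.666, counting error only). Without the filter it was not called (edgeR adjusted p = 0.0611). A floor of 3 counts corresponds to 0.035 to 0.0424 CPM across libraries.

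In the plasma membrane group, the abundant PIP1-2 was close to level between genotypes. PIP1-2 (AT2G45960, chromosome 2 from 18910081 to 18911982) had 14524, 16344 and 14793 counts in the wild type (a to c) and 15944, 18473 and 14840 in the mutant libraries. The groups overlapped at 195.5 ± 22.6 and 206 ± 29.7 CPM (SD, n = 3 each). The log2 fold change was 0.08 with a 95% interval of -0.16 to 0.31 (edgeR adjusted p = 0.601), an interval that lies below the whole interval of either TIP3 gene.

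PIP1-1 (AT3G61430) had 705, 778 and 774 counts in the wild type and 714, 775 and 643 in scl30a-1. These overlapped, and it was not called (log2 fold change -0.11, 95% interval -0.31 to 0.09, edgeR adjusted p = 0.338). It became called lower without scl30a-1 library b (log2 fold change -0.21, edgeR adjusted p = 0.0463).

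PIP1-5 (AT4G23400) had 302, 282 and 324 counts in the wild type and 380, 385 and 385 in scl30a-1, and its CPM did not overlap between genotypes, as for 52.1% of all genes tested. It rose from 3.88 ± 0.303 to 4.8 ± 0.312 CPM (SD, n = 3 each), a 1.24-fold difference (log2 fold change 0.31, 95% interval 0.11 to 0.51, edgeR adjusted p = 0.0191). The call was lost without wild-type library b (edgeR adjusted p = 0.0755), wild-type library c (0.0642) or scl30a-1 library c (0.0731).

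PIP2-1 (AT3G53420), a main water channel of roots and leaves, had 1487, 1766 and 1482 counts in the wild type and 1894, 2164 and 1874 in scl30a-1. Scaled to library size the groups overlapped, at 20.3 ± 3.03 and 24.8 ± 3.05 CPM (SD, n = 3 each). It was not called (log2 fold change 0.29, 95% interval 0.04 to 0.54, edgeR adjusted p = 0.0612). It was called higher in 5 of 14 alternative fits, among them those with DESeq2 (adjusted p = 0.0385), without the filter (edgeR adjusted p = 0.0392), without wild-type library b (0.0301) and without scl30a-1 library a (0.0452).

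PIP2-2 (AT2G37170) had 65, 74 and 79 counts in the wild type and 58, 88 and 50 in scl30a-1. The mutant libraries lay on both sides of the wild type, and it was not called (log2 fold change -0.18, 95% interval -0.66 to 0.30, edgeR adjusted p = 0.537). It was called lower without scl30a-1 library b (log2 fold change -0.48, edgeR adjusted p = 0.0392). This gene shares 22.6% of its 36-base words with other genes, chiefly its neighbour PIP2-3, whose coding sequence is 94.8% identical, so reads of these genes may have been split.

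In sum, 8 of the 10 genes passed the filter. The TIP3 pair and PIP1-5 were called higher by edgeR, where the share over all genes tested was 21.9%. With edgeR and the filter 0 were called lower, against 19.7% of all genes tested, and 0 were lower at an unadjusted p under 0.05. With DESeq2, and with edgeR without the filter, 1 was called lower, TIP2-1, which the edgeR filter had removed. Of the 5 not called, PIP2-1 was higher at an unadjusted p of 0.0269. The median log2 fold change was 2.71 for the TIP3 pair and 0.12 for the 6 vegetative genes tested, against 0.00 over all genes tested. The vegetative median leaves out TIP2-1 and TIP1-2, both of low counts. Without the filter their log2 fold changes were -2.37 (called) and -2.95 (not called).

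**Figure D1:**
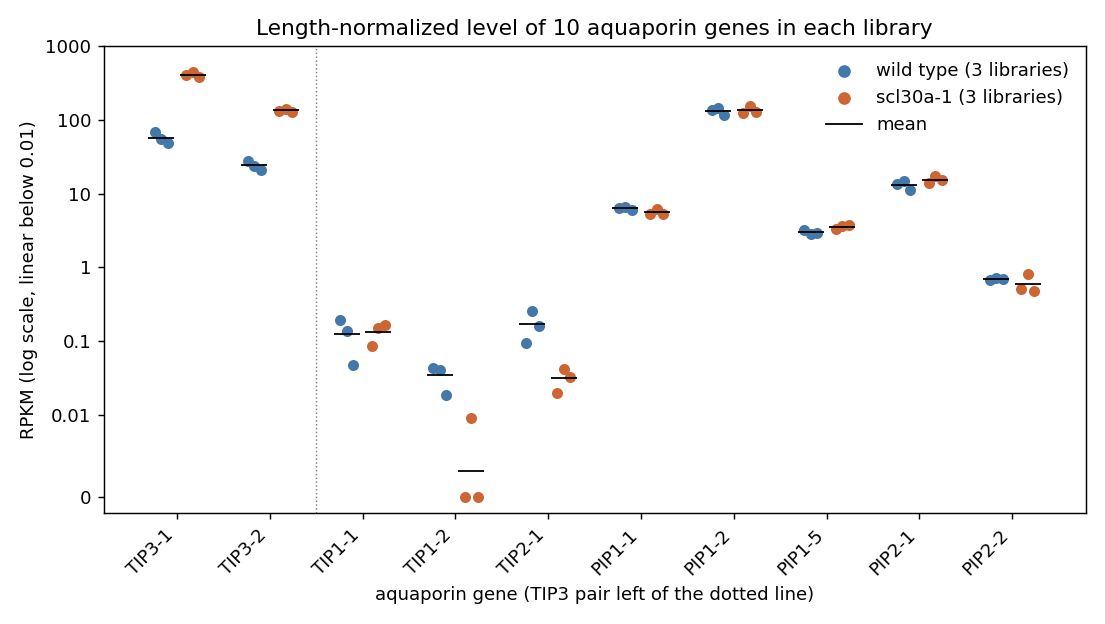
Length-normalized level (RPKM, vertical axis, log scale that is linear below 0.01) of the 10 aquaporin genes in each library. Points are libraries, blue for the wild type and orange for scl30a-1, and bars are means of 3 libraries. The genotypes stand clearly apart for TIP3-1 and TIP3-2, TIP1 and TIP2 genes reach at most 0.254 RPKM, and PIP1-2 lies between 116.2 and 152.1 RPKM.

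Levels of different genes were compared per length, in RPKM. In the wild type, PIP1-2 was the most abundant of the 10 at 131.6 ± 13.7, followed by TIP3-1 at 57.2 ± 9.96, TIP3-2 at 24.1 ± 3.51 and PIP2-1 at 13.1 ± 1.81 (SD, n = 3 each). In scl30a-1 the order changed at the top: TIP3-1 stood at 409.4 ± 33.8, PIP1-2 at 134 ± 15.8 and TIP3-2 at 133.8 ± 7.45 RPKM. PIP2-1 (15.5 ± 1.52), PIP1-1 (5.62 ± 0.494), PIP1-5 (3.56 ± 0.196) and PIP2-2 (0.598 ± 0.187) followed in the same sequence as in the wild type. Neighbours in the order did not overlap over libraries, except TIP2-1 and TIP1-1 in the wild type and PIP1-2 and TIP3-2 in scl30a-1, which could not be ranked. The order among TIP1-1, TIP1-2 and TIP2-1 rests on 0 to 23 counts per library and is not secure in either genotype. The vegetative genes thus spanned a wide range, from PIP1-2 down to TIP1-1, TIP1-2 and TIP2-1, which reached at most 0.254 RPKM in any library.

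Against the whole family, TIP3-1 was 4th of 35 aquaporins in wild-type RPKM, with a range that overlapped that of NIP1-2 above it, and 1st in scl30a-1, above PIP2-7. Among 31772 genes with counts and an annotated length, TIP3-1 was at place 1947 in the wild type and 206 in scl30a-1, and TIP3-2 at 4663 and 715. PIP1-2 held places 702 and 714.

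A share within a library does not depend on scaling between libraries. TIP3-1 and TIP3-2 together gave 12.4%, 10.4% and 10.1% of the summed RPKM of all 35 aquaporins in the wild type (a to c), and 50.3%, 49.4% and 48.3% in the mutant libraries. The PIP genes gave 67.6% ± 1.21 in the wild type and 36% ± 1.15 in scl30a-1 (SD, n = 3 each). Within the TIP genes, the TIP3 pair made up 98.6% to 98.8% in the wild type and 99.9% in each scl30a-1 library, so the vacuolar aquaporin transcripts of both genotypes were almost all of the seed type.

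**Figure D2:**
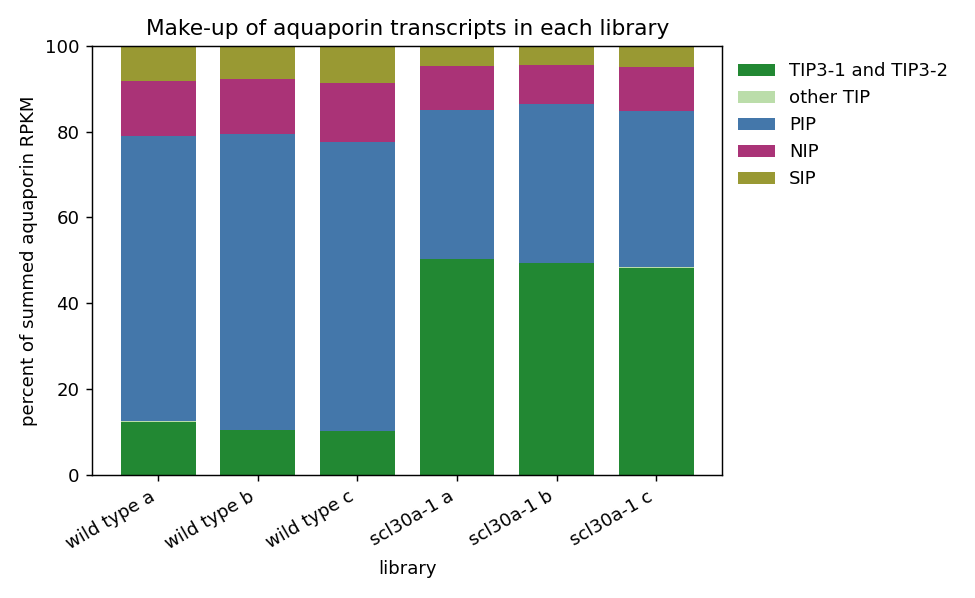
Percent of the summed RPKM of 35 aquaporins (vertical axis) taken by the TIP3 pair, the other TIP genes and the PIP, NIP and SIP genes in each of 6 libraries (horizontal axis). The TIP3 pair takes 10.1% to 12.4% in the wild type and 48.3% to 50.3% in scl30a-1, and the other TIP genes are barely visible.

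The summed level of the TIP3 pair was 81.3 ± 13.4 RPKM in the wild type and 543.2 ± 41.1 in scl30a-1, 6.68 times as high. The other 33 aquaporins together were at 657 ± 34.6 RPKM in the wild type and 558 ± 40.5 in scl30a-1 (SD, n = 3 each). Without PIP2-7 and PIP2-8, the other 11 PIP genes summed to 193.7 ± 18.3 RPKM in the wild type and 195.4 ± 21.1 in scl30a-1. The sum over all 35 was 738.3 ± 46 and 1101 ± 78.9 RPKM.

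The log2 ratio of TIP3-1 to another gene within a library was taken for 8 aquaporins with at least 50 counts in every library, which leaves out TIP1-1, TIP1-2 and TIP2-1. Against PIP1-2 it was -0.997, -1.38 and -1.25 in the wild type (a to c) and 1.69, 1.56 and 1.60 in the mutant libraries, so that TIP3-1 was the lower of these in every wild-type library and the higher in every mutant library. The difference between genotype means of this ratio was 2.82. It lay between 2.59 and 3.12 for the 5 PIP genes among the 10, and was 0.36 for TIP3-2.

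**Figure D3:**
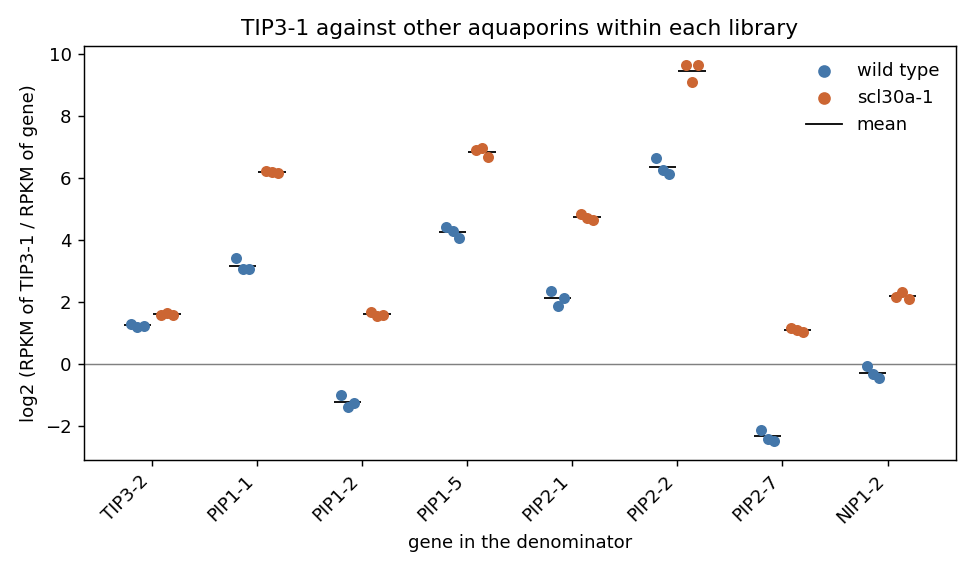
Log2 ratio of the RPKM of TIP3-1 to that of 8 other aquaporins (horizontal axis) within each library, blue for the wild type and orange for scl30a-1, with bars for the means of 3 libraries. The genotypes stand apart for each gene shown, by 0.36 for TIP3-2 and by 2.47 to 3.43 for the others.

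Of the other 25 aquaporins, 15 passed the filter. Of these, 6 were called lower, 1 was called higher and 8 were not called, where 19.7% of all genes tested were lower and 21.9% higher. Their median log2 fold change was -0.21. PIP2-7 (AT4G35100), the most abundant aquaporin of the wild type, had 33429, 35362 and 36705 counts in the wild type (a to c) and 24491, 27027 and 23351 in the mutant libraries. It fell from 450.4 ± 24.7 to 313 ± 34.1 CPM (SD, n = 3 each, log2 fold change -0.53, 95% interval -0.70 to -0.35, edgeR adjusted p = 0.000506), and its libraries did not overlap.

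PIP2-8 (AT2G16850), which is 84.6% identical to PIP2-7 in its aligned coding bases, fell from 29.3 ± 3.04 to 14.4 ± 2.25 CPM (log2 fold change -1.02, 95% interval -1.26 to -0.78, edgeR adjusted p = 5.35e-05). The low TIP2-2 (log2 fold change -1.20, edgeR adjusted p = 0.00466) and PIP2-6 (-0.95, edgeR adjusted p = 0.0205) also fell. PIP2-6 had 8 to 24 counts per library, and its call was lost with DESeq2 (adjusted p = 0.111) and without wild-type library c (edgeR adjusted p = 0.0769), scl30a-1 library a (0.0547) or scl30a-1 library b (0.061).

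Among NIP genes, which conduct metalloids and other small solutes, NIP1-1 fell from 21.8 ± 0.602 to 13.7 ± 0.969 CPM (log2 fold change -0.67, edgeR adjusted p = 1.75e-05). NIP1-2 rose from 93.1 ± 4.63 to 124.8 ± 3.63 CPM (log2 fold change 0.42, edgeR adjusted p = 0.000125), so that these NIP1 genes moved in opposite directions under each scaling tried. NIP5-1, a boric acid channel, was not called at 24.7 ± 1.01 and 24.6 ± 1.89 CPM (SD, n = 3 each, 95% interval of the log2 fold change -0.14 to 0.14). SIP1-2, of the endoplasmic reticulum group, fell (log2 fold change -0.75, edgeR adjusted p = 0.000326).

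The 8 not called were PIP1-3 (log2 fold change -0.15), PIP1-4 (0.04), PIP2-3 (-0.42), PIP2-5 (-0.21), TIP4-1 (0.73), NIP5-1, SIP1-1 (-0.18) and SIP2-1 (-0.04). SIP1-1, at an edgeR adjusted p of 0.0539, was called lower in 8 of the 14 alternative fits, among them those with DESeq2 size factors (0.0477) and without composition scaling (0.0107). TIP4-1 was called higher without wild-type library c (log2 fold change 1.19, edgeR adjusted p = 0.0282), PIP2-5 lower without that library (-0.31, 0.0229) without composition scaling (-0.26, 0.0486) or with upper-quartile scaling (-0.28, 0.04), and PIP1-3 lower without it (-0.27, 0.0453) or without scl30a-1 library b (-0.25, 0.0448). Of the 10 that failed the filter, TIP1-3, TIP2-3, NIP4-1, NIP4-2, NIP6-1 and NIP7-1 had 0 counts in all 6 libraries, and PIP2-4, TIP5-1, NIP2-1 and NIP3-1 had at most 6 counts in any library.

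**Figure D4:**
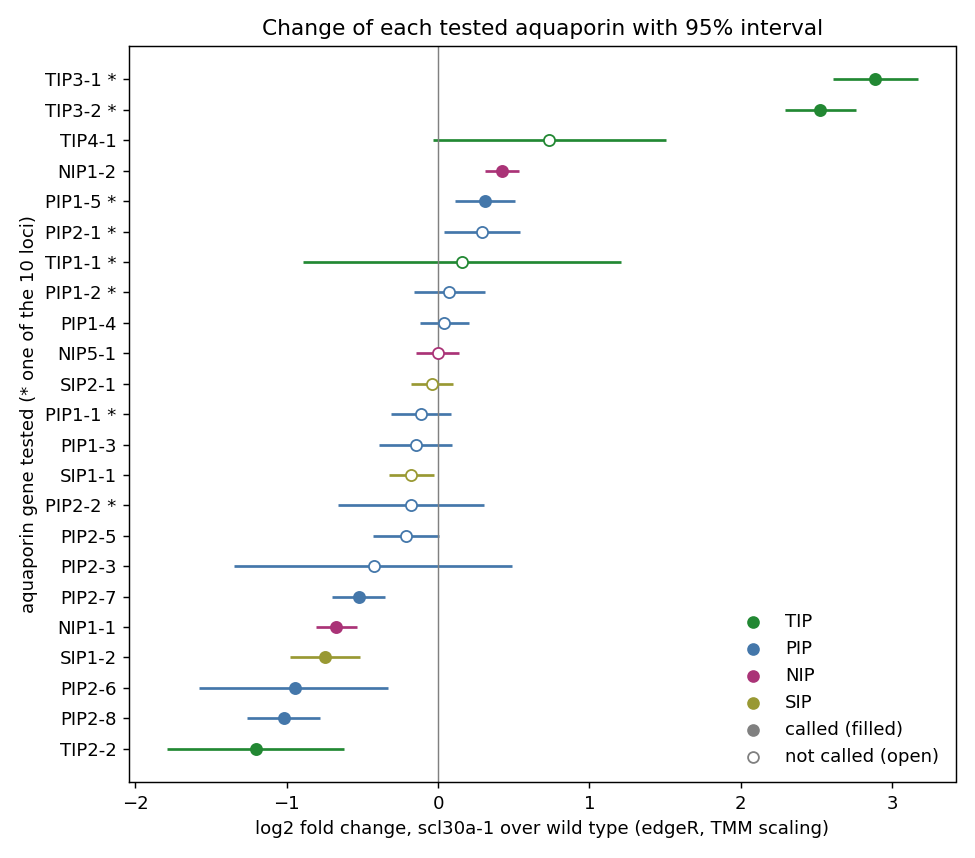
Log2 fold change of scl30a-1 over the wild type (horizontal axis) for the 23 aquaporins that passed the filter, coloured by subfamily, with 95% intervals from the edgeR fit. Filled points were called at an adjusted p under 0.05, and the TIP3 pair, at 2.89 and 2.53, lies apart from the others, which run from -1.20 to 0.73.

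Genes most like TIP3-1 over the 6 libraries were sought by the Pearson correlation of log2 CPM among 16860 other genes that averaged 50 counts or more. The 5 highest were EM1 (AT3G51810, a LEA protein gene, r = 0.99981), TIP3-2 (0.99978), AT2S1 (AT4G27140, a storage albumin gene, 0.99976), AT3G03341 (0.99975) and AT4G27530 (0.99967). The libraries fall into 2 genotypes, so these values mostly describe the difference between them. The log2 fold changes of these genes were 2.49 for EM1, 4.18 for AT2S1, 1.72 for AT3G03341 and 2.30 for AT4G27530.

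Some markers of seed tissues were called too, as were 41.7% of all genes tested. Of 5 endosperm markers, 2 were called higher, the extensin gene EPR1 (log2 fold change 1.66, edgeR adjusted p = 3.81e-06) and the mannanase gene MAN7 (0.51, edgeR adjusted p = 9.16e-05), and EXPA2, MAN5 and MAN6 were not called. Their summed level was 1385 to 1476 RPKM in the wild type and 1680 to 1746 in scl30a-1. Of 3 markers of the embryo epidermis, ATML1 (-0.20) and PDF1 (-0.53) were called lower and PDF2 was not called, and the sum was 359.7 to 375.1 RPKM in the wild type and 285.7 to 301.3 in scl30a-1. Of 3 green seedling markers, LHCA1 was called lower (-0.40), RBCS1A was not called and LHCB1.1 was not tested, and the sum of the 3 was 347.8 to 386.6 and 302.2 to 367.2 RPKM. The part of these tissues in the aquaporin differences was not tested.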

How the data were processed

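Poly(A) RNA of 6 libraries was sequenced, 3 per genotype. The authors deposited 1 table with a whole-number read count for each gene and library, per the file headers. The build was TAIR10, per the submitters' processing notes, while the aligner, the counter and the use of strand are not given in the sources used here. The table's 6 columns of length-normalized values could not be matched to single samples and were not used, so levels per length were computed from the counts in their place. Columns name the genotype and a letter that no label ties to a replicate number.

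Counts of 33602 genes (1213 without values) were tested with edgeR 4.0.16 in R 4.3.3: TMM scaling, filterByExpr with a minimum count of 10, the quasi-likelihood test with genotype as the only term, with p-values of all 18736 tested genes adjusted by Benjamini-Hochberg. A gene was called at an adjusted p under 0.05. CPM used TMM-scaled library sizes. Levels of different genes, shares and within-library ratios used RPKM, the count per kilobase of the longest annotated transcript and library total without TMM. They got no test. Levels and ratios are descriptions, and a share over genes chosen with earlier results of these data known gets no p. A two-sided permutation p of 3 against 3 libraries also cannot fall under 0.1. The edgeR fit was tested on simulated counts, there with a filter on a mean of at least 10 counts. Few genes were made to differ there, against 41.7% called here, so no conclusion about this comparison is drawn from it.

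Annotation, promoters and coding sequences came from RefSeq TAIR10.1, in which all 79 loci of the gene lists were found. The members and lists were chosen with earlier results of these data known. Genes named were all 10 members, each other aquaporin that passed the filter, the 3 proton pump genes with the smallest p in each direction among those called, SCL30a, and the 5 genes most correlated with TIP3-1. Intervals on summed counts and the floor of 3 counts cover counting error only. Alternatives were other scalings and filters, DESeq2 1.42.0, limma 3.58.1 (voom), a block by column letter, stricter thresholds, and leaving out each library. The design text calls the samples biological triplicates.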

Additional observations from a re-analysis of the deposited data

How the results depend on the processing

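TIP3-1 (log2 fold change 2.76 to 3.04) and TIP3-2 (2.40 to 2.64) were called higher in each of 14 alternative fits. Over 29 named genes and 403 alternative fits, 368 kept the side of the threshold, 14 lost a call, 21 gained one and 0 reversed a call. The 368 include fits in which the direction changed for a gene that was not called. For example, TIP1-1 had a log2 fold change of 0.16 in the main fit and -0.29 without wild-type library c. PIP1-2 had 0.08 in the main fit and -0.05 without scl30a-1 library b. Of the 10 genes, 1 was called lower without the filter and 1 with DESeq2, which is TIP2-1, and 0 to 3 when 1 library was left out. TIP2-1 was called lower without wild-type library a or without scl30a-1 library a, b or c. Of all genes, 3811 were called lower without the filter and 3561 with DESeq2, each of 23628 fitted. When 1 library was left out, 2714 to 3895 genes were called lower and 3111 to 4180 higher, of 18800 to 18898 tested. Other aquaporins called higher numbered 1 to 2 when 1 library was left out and 0 at a fold change of at least 1.5. Over all genes, 5008 were called at an adjusted p under 0.01 (2261 lower) and 2291 at a fold change of at least 1.5 (1146 higher, 1145 lower), by construction of the stricter thresholds. The split of 4106 higher and 3700 lower became 3119 and 4589 without composition scaling and 2961 and 5258 with upper-quartile scaling, where all genes had median log2 fold changes of -0.04 and -0.07; the cause was not tested. The TIP3 share of aquaporin transcripts was 8.64% in the wild type and 42.9% in scl30a-1 from raw counts, against 11% and 49.3% per length. With the length of the coding sequence, chosen after seeing the data, 0 of the 10 genes changed place in the order of levels. The deposited length-normalized values, planned for that order, were not used.

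The deviations of same-letter libraries of the 2 genotypes had correlations of -0.0772, 0.238 and 0.247 (letters a to c). Of 6 libraries, 4 correlated best with their own letter. These values do not decide whether the letters mark pairs. The labels name no batch and tie no letter to a replicate number, so the main fit did not take the letters as pairs. With the replicate block by column letter, 8940 of 18736 genes tested were called, 4638 higher and 4302 lower. In that fit 4 of the 10 genes were called higher, PIP2-1 (log2 fold change 0.29, edgeR adjusted p = 0.00187) in addition. There 7 other aquaporins were called lower, SIP1-1 (-0.18, edgeR adjusted p = 0.0155) in addition. Depth limits TIP1-1, TIP1-2 and TIP2-1, which had 0 to 23 counts per library.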

Other observations

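Water enters the vacuole beside ions and sugars driven by the proton pumps of its membrane, the pyrophosphatase AVP1 and the V-type ATPase. The 27 pump genes examined are AVP1 and subunit genes of the V-type ATPase, not sorted by the membrane in which each subunit acts. Of these, 25 passed the filter, of which 2 were called higher, 5 lower and 18 not called, where 21.9% of all genes tested were higher and 19.7% lower. Their median log2 fold change was -0.02. The largest difference was in VHA-E3, an E subunit of low level that fell from 2.37 ± 0.459 to 1.02 ± 0.0898 CPM (SD, n = 3 each, log2 fold change -1.20, edgeR adjusted p = 0.000269). The abundant VHA-E1 was at 219.8 ± 12.9 and 218.2 ± 14 CPM and was not called. The subunit genes VHA-G2 (-0.25, edgeR adjusted p = 0.0063) and VHA-B2 (-0.21, edgeR adjusted p = 0.00846) fell, while VHA-G1 rose (0.19, edgeR adjusted p = 0.0108, not called with upper-quartile scaling, adjusted p = 0.0683). VHA-c2 (0.22, edgeR adjusted p = 0.0382) lost its call in 6 of 14 alternative fits, with adjusted p up to 0.137.

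Chosen after their values were seen, AVP1 fell from 3256 ± 97.7 to 2716 ± 174.6 CPM (log2 fold change -0.26, edgeR adjusted p = 0.0109) and VHA-c5 had a log2 fold change of -0.22 (edgeR adjusted p = 0.0273). The pump differences, apart from VHA-E3, were at most 0.26 on the log2 scale, beside 2.89 and 2.53 for the TIP3 pair.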
